A study of Caenorhabditis elegans with 12 samples.

Results

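C-type lectin (clec) genes form a large family in Caenorhabditis elegans, and 220 of them could be followed on Affymetrix arrays of whole young adult worms. They were taken by gene symbol: a probe set counted when the platform annotation paired it with a single gene named clec and a number, and the brightest probe set over the 12 arrays stood for its gene. The 220 genes have 236 such probe sets and are part of 17118 genes with a single-gene probe set. A RefSeq gene table of assembly WBcel235 lists 239 clec genes, and 22 further clec probe sets shared by several genes were left out of the family counts.

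The groups were hermaphrodites carrying the temperature-sensitive allele fer-1(hc1ts) in strain BA1, those carrying fer-1(hc24ts) in strain BA24, and wild type strain N2, with 4 arrays each. Animals of all groups were synchronised as L1 larvae, grown at 25 °C to the young adult stage and sorted, and each array used 100 ng of RNA from 1000 adults. The gene fer-1 encodes a ferlin that sperm need for the fusion of their membranous organelles with the cell surface, so these mutants are sterile at the high temperature. Each allele came from 1 strain, so the allele and the rest of the strain's genotype cannot be told apart. For every genotype 6 preparations were made and the 4 that correlated best were kept, so the arrays vary less than unselected preparations would, and p-values are smaller for it. In RNA of whole worms, fewer cells of a type and less RNA per cell cannot be told apart.

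The C-type lectin-like domain is a fold that in many animal lectins binds carbohydrate with the help of calcium. In nematodes the family has expanded greatly, many members are predicted to be secreted, and several are known from the response to swallowed bacteria, where intestinal cells express them. Which sugars most worm members bind, and whether they bind any, is not established.

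The probe set for fer-1 itself lay between 1.46 and 1.48 on the log2 scale in all 12 arrays, which is background, so it could not check the labels. The lowest correlation between 2 arrays of a group was 0.997, against highest values of 0.995 between hc1 and hc24 arrays, 0.984 between hc1 and wild type arrays and 0.983 between hc24 and wild type arrays. The median within-group SD of the tested clec genes was 0.12 log2 units in hc1, 0.14 in hc24 and 0.22 in wild type.

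Most of the family gave no signal in these worms. A gene was tested when its probe set reached log2 4 in at least 4 of the 12 arrays, and 53 of the 220 clec genes (24.1%) did so, against 8742 of all 17118 genes (51.1%). The other 167 had mean log2 signals between 1.46 and 3.23, with a median of 2.23, and 164 of them did not reach 4 in any array of any group. At the other end, 8 members averaged log2 12 or more, while 22 lay between 8 and 12 and 23 between 4 and 8. The number at or above 4 in all 4 arrays of a group was 52 in hc1, 52 in hc24 and 51 in wild type, and 50 were so in every array. The set of clec genes with signal was thus almost the same in the 3 genotypes. Of the 53 tested members, 20 rest on a probe set whose suffix marks probes that can match more than 1 transcript. Among these are clec-5, clec-17, clec-41, clec-49, clec-50, clec-61, clec-62, clec-65, clec-83, clec-87, clec-88 and clec-91.

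**Figure D1:**
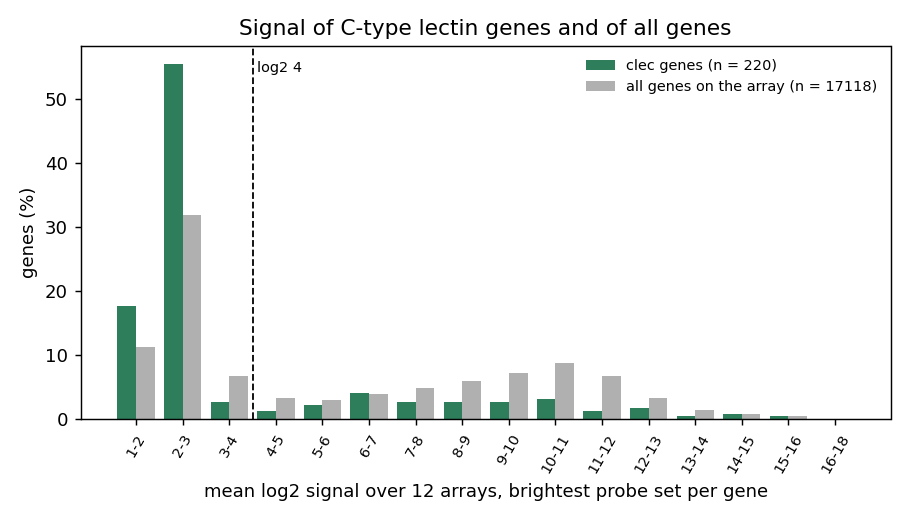
Share of genes (percent) by mean log2 signal over the 12 arrays, for the 220 clec genes (green) and for all 17118 genes with a single-gene probe set (grey); the dashed line marks log2 4. The clec genes pile up between log2 2 and 3, below the line.

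Against wild type, more tested clec genes were lower than higher in both mutants, while over the whole array calls to the higher side were more frequent. In hc1, 12 of the 53 were higher (22.6%, against 43.3% of all 11833 probe sets tested) and 28 were lower (52.8%, against 25.9%), at an adjusted p under 0.05 in limma with Benjamini-Hochberg adjustment. In hc24, 17 were higher (32.1%, against 37.7%) and 26 were lower (49.1%, against 21.7%). The median log2 difference of the tested members was -0.35 in hc1 and -0.26 in hc24, beside medians of 0.14 and 0.12 over all probe sets tested. Both comparisons use the same 4 wild type arrays.

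Differences of at least 2-fold that also passed the test were fewer. They were 5 higher and 9 lower in hc1 (9.43% and 17%, against 6.38% and 10.8% of all tested), and 6 higher and 8 lower in hc24 (11.3% and 15.1%, against 5.27% and 9.52%). The arrays of mutant and wild type did not overlap for 13 higher and 28 lower members in hc1, where 41.7% and 23.2% of all probe sets did not overlap, and for 12 higher and 22 lower members in hc24, against 35.7% and 19.5%.

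These splits depend on where the zero is set. With each array centred on its median, which moved the median over all probe sets to 0.40 in hc1 and 0.38 in hc24, 18 members were higher and 25 lower in hc1, beside 63.2% and 19.1% of all probe sets, and 20 were higher and 18 lower in hc24, beside 65.1% and 15.7%. With cyclic loess between arrays, which moved it to -0.03 and -0.00, the counts were 12 higher and 33 lower in hc1, beside 26.9% and 34.4%, and 12 higher and 26 lower in hc24, beside 23.0% and 27.6%. Relative to the median of all probe sets, the members' median stood at -0.50 in hc1 in the deposited values, -0.53 after loess and -0.50 after centring. In hc24 it stood at -0.38, -0.34 and -0.38. Centring moves all values of an array alike and so cannot move this gap. Without the filter the members' median stood at -0.01 in both mutants relative to all probe sets, since most of the family is then at background.

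**Figure D2:**
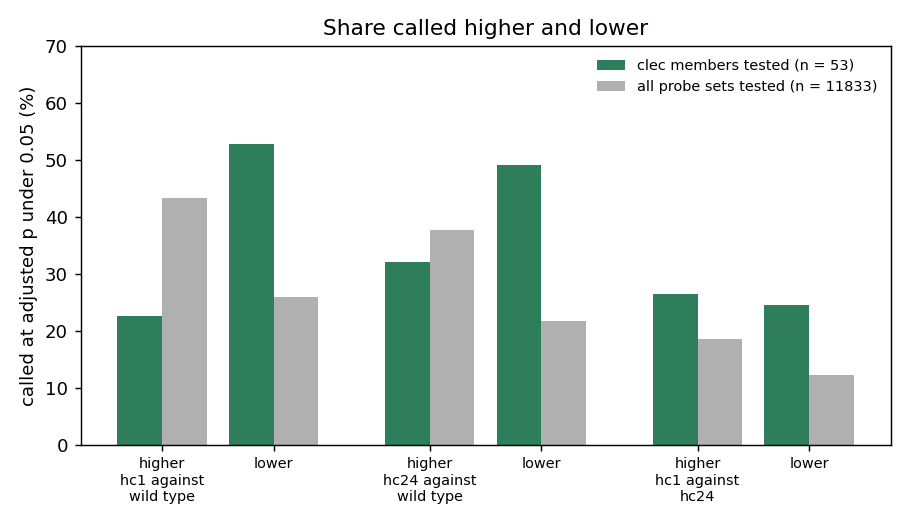
Percent called higher or lower at an adjusted p under 0.05, for the 53 tested clec genes (green) and all 11833 tested probe sets (grey), in hc1 against wild type, hc24 against wild type and hc1 against hc24. Against wild type, the green bars are the shorter ones among the higher calls and the taller ones among the lower calls in both mutants.

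Taken gene by gene, 23 members (43.4%, against 18.3% of all probe sets tested) were lower in both mutants and 10 (18.9%, against 31.3%) were higher in both. In 3 members (5.66%, against 1.68%) hc1 was lower and hc24 higher than wild type, and 0 members (against 0.27%) showed the reverse. The calls of 2 members were higher in hc1 alone, 2 were lower in hc1 alone, 4 were higher in hc24 alone and 3 were lower in hc24 alone, and 6 passed in neither. The order of the genes by size of change in the plot of log2 changes runs from clec-174 and clec-160 at the high end to clec-196 at the low end.

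**Figure D3:**
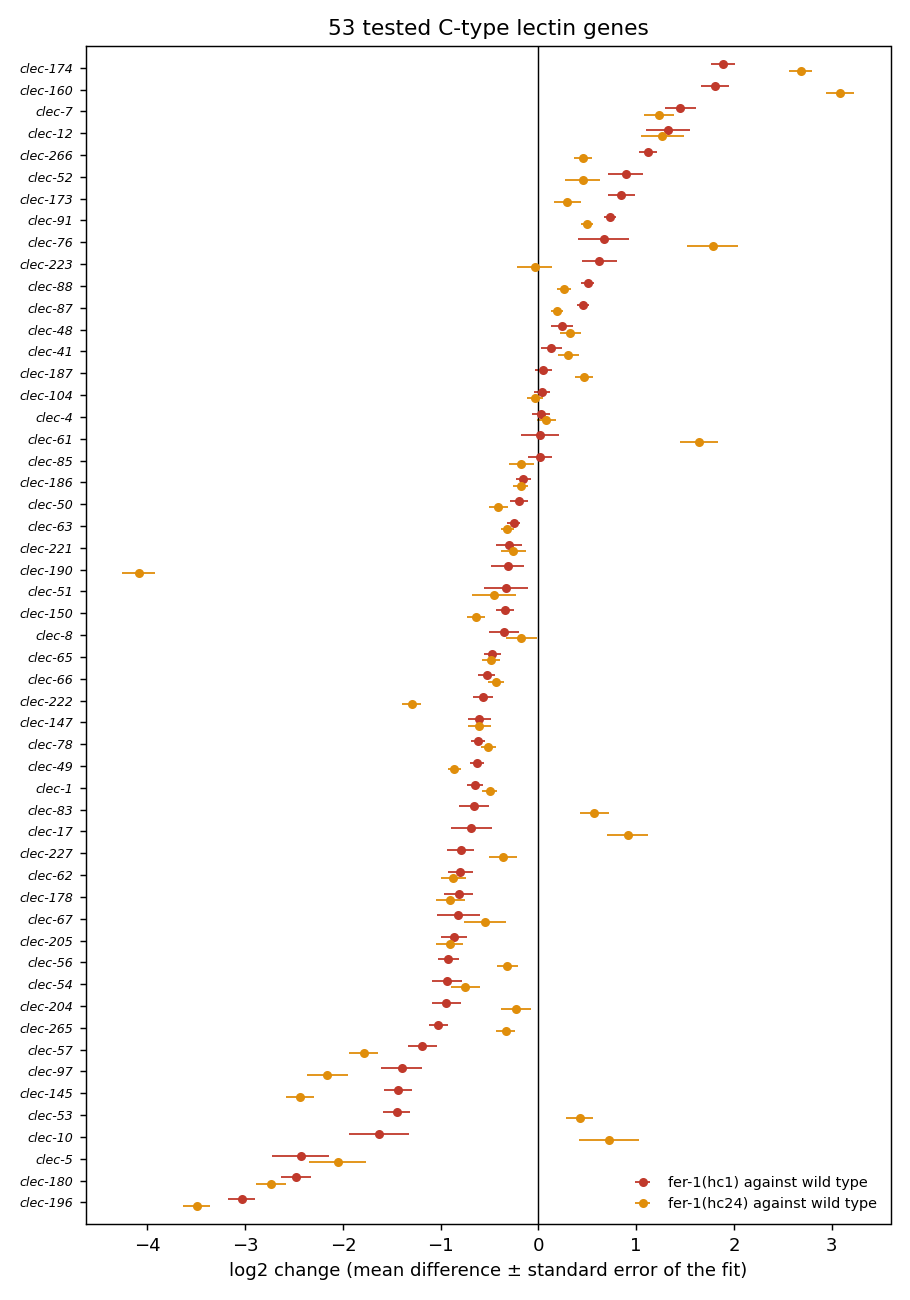
Log2 change against wild type of each of the 53 tested clec genes, as mean difference ± standard error of the limma fit, for fer-1(hc1) (red) and fer-1(hc24) (orange), ordered by the change in hc1. Most pairs of points lie on the same side of 0; clec-190, clec-61, clec-53, clec-17, clec-83 and clec-10 show widely separated points.

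Among the genes lower in both mutants, clec-196 on chromosome IV had the largest change in hc1. Its log2 signal was 6.75, 7.26, 7.02 and 6.52 in hc1 arrays and 6.46, 6.42, 6.41 and 6.42 in hc24 arrays, against 10.11, 9.81, 9.72 and 10.05 in wild type arrays. Both mutants lay far below every wild type array. The gene was 8.21-fold lower in hc1 (adjusted p = 2.4e-09, limma) and 11.3-fold lower in hc24 (5.44e-10). The hc24 arrays lay between 6.41 and 6.46, and whether this is the probe set's background was not tested. If it is, the hc24 fold is a lower bound. Its neighbour in rank, clec-180 on the same chromosome, fell close to the filter value of log2 4. It read 4.67, 4.42, 4.38 and 4.35 in hc1 and 4.34, 4.23, 4.10 and 4.13 in hc24, against 6.82, 6.57, 6.91 and 7.45 in wild type. It was 5.59-fold lower in hc1 (3.48e-08) and 6.66-fold lower in hc24 (1.32e-08). Whether these mutant values are its probe set's background was not tested, and if they are, both folds are lower bounds. Epidermis and molting markers fell in the same mutants, 9 of 9 tested in hc1 and 8 of 9 in hc24, and their part in these falls was not tested.

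The gene clec-5 on chromosome III was variable within the mutants but separated from wild type. It read 7.08, 8.19, 8.17 and 7.90 in hc1 arrays and 8.65, 8.23, 8.52 and 7.44 in hc24 arrays, against 10.68, 9.92, 10.28 and 10.18 in wild type arrays. This made it 5.4-fold lower in hc1 (adjusted p = 1.28e-05, limma) and 4.15-fold lower in hc24 (7.24e-05), and hc1 and hc24 overlapped (0.356 for their difference).

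The fall was deeper in hc24 than in hc1, with a called difference between the alleles, for several further members, among them clec-145, clec-97, clec-57 and clec-222. For clec-145 on chromosome II the log2 means were 6.58 ± 0.02 in hc1, 5.58 ± 0.29 in hc24 and 8.01 ± 0.27 in wild type (SD, n = 4 each), a fall of 2.71-fold in hc1 and 5.42-fold in hc24, and the alleles differed with an adjusted p of 0.000232 in limma. For clec-97 on chromosome I they were 5.74 ± 0.33 in hc1, 4.98 ± 0.10 in hc24 and 7.14 ± 0.47 in wild type, with falls of 2.64-fold and 4.46-fold. The difference between the alleles passed for clec-97 (0.0164) but missed the threshold without hc1 replicate 1 (0.0509) and under 1 other alternative. The gene clec-57 fell by 2.28-fold in hc1 and 3.45-fold in hc24, and clec-222, at higher signal, by 1.48-fold and 2.46-fold, and both differed between the alleles (0.00874 and 0.000147). For clec-57 this rests on 1 of its 2 tested probe sets: the other fell by 1.05 on the log2 scale in hc1 and by 1.12 in hc24, and its difference between the alleles was 0.07 (0.739). The opposite order held for some members, among them clec-265 on chromosome X, which was 2.04-fold lower in hc1 and 1.26-fold lower in hc24 (0.000211 between the alleles). Its log2 means were 10.32 ± 0.09 in hc1, 11.01 ± 0.08 in hc24 and 11.35 ± 0.21 in wild type. The fall in hc24 did not pass when each array was centred on its median.

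For clec-78 on chromosome IV the 2 tested probe sets gave the same direction and very different sizes. The brighter one, which stands for the gene, was 1.53-fold lower in hc1 and 1.42-fold lower in hc24. The other averaged 2.12 in hc1 and 2.06 in hc24, which is background, against 6.91 in wild type, so it was at least 7.51-fold lower in each mutant. It passed the filter through the wild type arrays alone, so no test is given for it. Its suffix marks probes that can match other transcripts, and whether both sets read the same transcript was not tested.

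**Figure D4:**
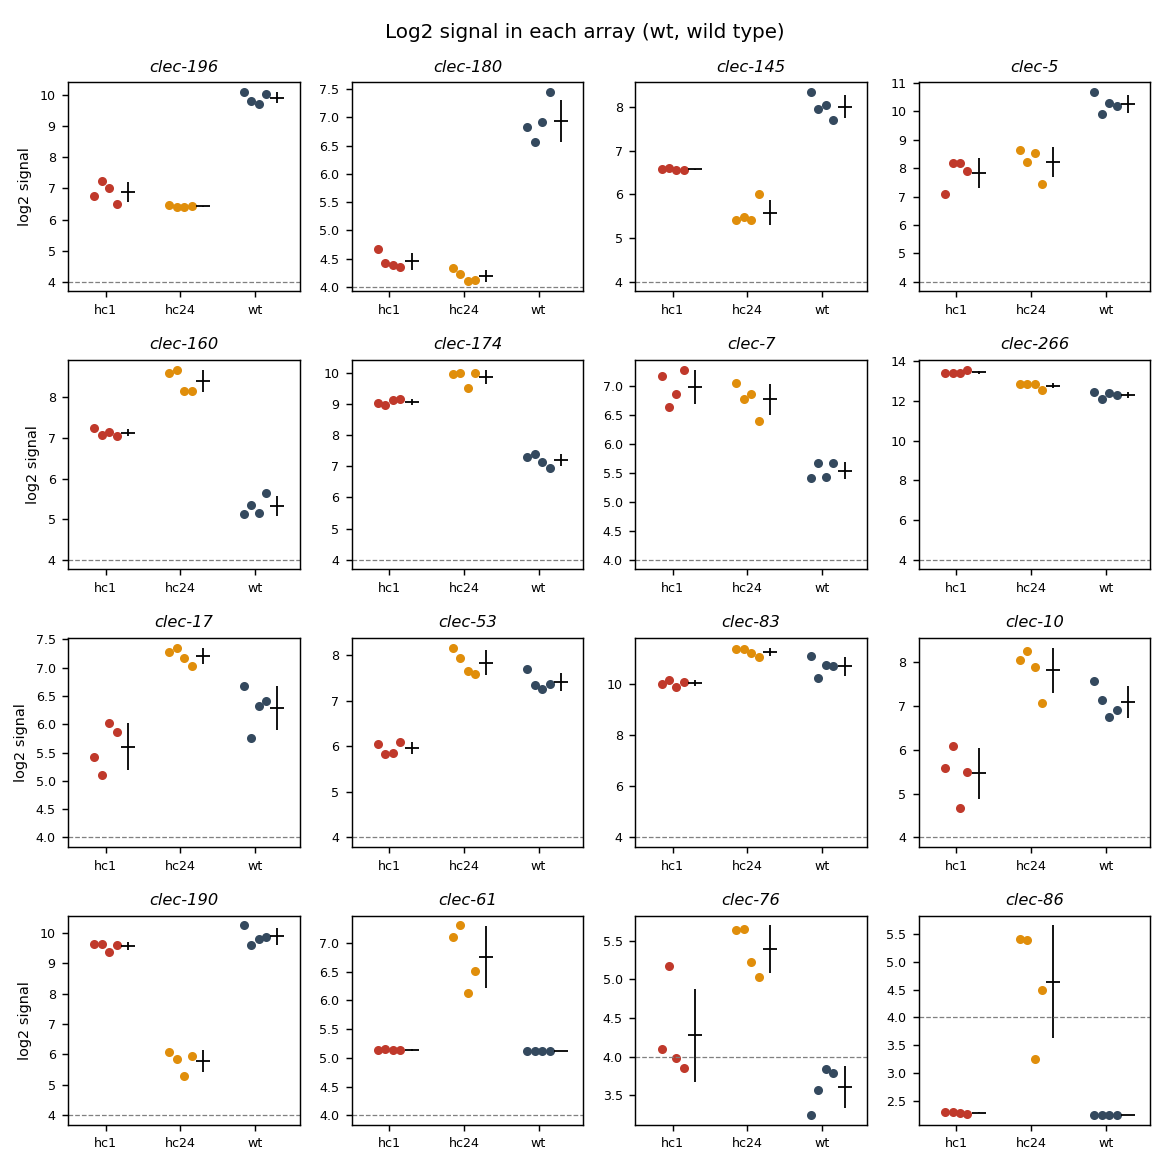
Log2 signal in each of the 4 arrays per group (points) with mean ± SD (bars) for 16 clec genes, in fer-1(hc1) (red), fer-1(hc24) (orange) and wild type (dark blue; wt); the dashed line marks log2 4 and each panel has its own scale. In the top row both mutants lie below wild type, in the next row above it, and in the lower rows the alleles part.

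The genes higher in both mutants include clec-160 and clec-174, whose rises were larger in hc24. The log2 signal of clec-160 on chromosome III was 7.24, 7.08, 7.14 and 7.05 in hc1 arrays and 8.60, 8.68, 8.16 and 8.16 in hc24 arrays, against 5.12, 5.36, 5.14 and 5.65 in wild type arrays. The 3 groups were fully separate. The gene was 3.5-fold higher in hc1 (adjusted p = 3.31e-07, limma) and 8.49-fold higher in hc24 (2.11e-09), and hc1 was 2.42-fold lower than hc24 (3.02e-05). For clec-174 on chromosome IV the arrays read 9.05, 8.96, 9.15 and 9.18 in hc1 and 9.97, 9.99, 9.53 and 10.02 in hc24, against 7.30, 7.40, 7.14 and 6.96 in wild type. It was 3.7-fold higher in hc1 (5.28e-08) and 6.41-fold higher in hc24 (1.81e-09), again with no overlap between any groups, and hc1 was 1.73-fold lower than hc24 (0.000354). The probe sets of both genes are of the kind that can match other transcripts.

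The gene clec-7 on chromosome V rose in both mutants. It read 7.18, 6.64, 6.86 and 7.28 in hc1 and 7.05, 6.78, 6.86 and 6.40 in hc24, against 5.40, 5.67, 5.42 and 5.67 in wild type, which made it 2.73-fold higher in hc1 (adjusted p = 5.53e-06, limma) and 2.35-fold higher in hc24 (2.89e-05). The standard error of each log2 change was 0.16, and the difference between the alleles was 0.22 ± 0.16 (0.322). The weakly expressed clec-12 on chromosome I averaged 4.76 ± 0.22 in hc1 and 4.70 ± 0.09 in hc24, against 3.43 ± 0.58 in wild type, where the mean lay under log2 4. It was at least 1.69-fold higher in hc1 and at least 1.62-fold higher in hc24, and 1 wild type array reached log2 4, so it was tested through the mutant arrays.

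Several of the brightest members also rose in both mutants, by less and with small errors. For clec-266 on chromosome X the arrays read 13.39, 13.39, 13.41 and 13.57 in hc1 and 12.84, 12.86, 12.85 and 12.56 in hc24, against 12.47, 12.11, 12.40 and 12.30 in wild type. It was 2.18-fold higher in hc1 (adjusted p = 6.05e-07, limma) and 1.37-fold higher in hc24 (0.00125), with no overlap between any groups. The gene clec-91 was 1.66-fold higher in hc1 and 1.42-fold higher in hc24. The brightest probe sets of the family belong to clec-87 and clec-88. The log2 means of clec-87 were 15.45 ± 0.08 in hc1, 15.18 ± 0.05 in hc24 and 14.99 ± 0.07 in wild type, and those of clec-88 were 14.90 ± 0.05 in hc1, 14.66 ± 0.12 in hc24 and 14.40 ± 0.06 in wild type. In hc1 they rose 1.37-fold and 1.42-fold. The smaller rises in hc24, 1.14-fold and 1.2-fold, did not pass after cyclic loess (adjusted p = 0.366 and 0.117), and that of clec-87 did not pass without wild type replicate 3 (0.0602) or without hc24 replicate 1 (0.0517). The second, dimmer tested probe set of each gene was also called higher in hc24 in the reported limma fit. Its log2 change was 0.32 for clec-87 (adjusted p = 0.00205) and 0.30 for clec-88 (0.00623).

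The other bright members went the other way or did not pass. The gene clec-63 averaged 14.20 ± 0.07 in hc1 and 14.14 ± 0.10 in hc24, against 14.45 ± 0.07 in wild type, and was 1.19-fold lower in hc1 and 1.25-fold lower in hc24. Neither call held when arrays were centred on their medians (adjusted p = 0.99 and 0.37). The gene clec-50 averaged 13.85 ± 0.18 in hc1 and 13.63 ± 0.12 in hc24, against 14.04 ± 0.11 in wild type, and fell in hc24 (0.00288, limma) but not when arrays were centred (0.118), while hc1 gave 0.0843. The hc1 difference passed after cyclic loess (0.00402), with array weights (0.0301), with trended and robust moderation (0.0496) and without hc1 replicate 6 (0.0115). The bright end of the family thus held genes of both directions, and their changes were all under 2-fold except that of clec-266 in hc1.

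The alleles gave opposite calls against wild type for 3 members. The gene clec-53 on chromosome I read 6.05, 5.83, 5.85 and 6.09 in hc1 arrays and 8.16, 7.94, 7.64 and 7.57 in hc24 arrays, against 7.68, 7.33, 7.24 and 7.37 in wild type arrays. It was 2.73-fold lower in hc1 (adjusted p = 1.53e-06, limma) and 1.34-fold higher in hc24 (0.0172), where the arrays overlap with wild type. The hc24 call was lost without wild type replicate 5 (0.0517), without hc24 replicate 1 (0.0533) and with the replicate number as a block (0.107). The difference between the alleles was 3.66-fold, lower in hc1 (9.46e-07).

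The gene clec-17, also on chromosome I, read 5.42, 5.11, 6.02 and 5.86 in hc1 and 7.27, 7.35, 7.18 and 7.02 in hc24, against 6.67, 5.76, 6.32 and 6.41 in wild type. It was 1.61-fold lower in hc1 (adjusted p = 0.0114, limma), with overlap, and 1.88-fold higher in hc24 (0.00263), without overlap. The fall in hc1 did not pass when arrays were centred (0.0592). The gene clec-83 on chromosome IV averaged 10.04 ± 0.11 in hc1 and 11.27 ± 0.17 in hc24, against 10.70 ± 0.36 in wild type. It was 1.58-fold lower in hc1 (0.00207) and 1.49-fold higher in hc24 (0.00617), and hc1 was 2.35-fold lower than hc24 (6.75e-05). In each of the 3 genes every hc1 array lay below every hc24 array.

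Directly compared, hc1 was higher than hc24 for 14 of the 53 members (26.4%, against 18.6% of all probe sets tested) and lower for 13 (24.5%, against 12.2%), and 26 did not pass. The median difference was 0.03, beside 0.07 over all tested. At 2-fold or more, hc1 was higher for 2 members (against 2.17% of all tested) and lower for 7 (against 3.41%). The arrays did not overlap for 17 members with hc1 higher and 12 with hc1 lower, where 21.7% and 12.9% of all probe sets did not.

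The largest difference between the alleles was in clec-190 on chromosome IV. Its log2 signal was 9.64, 9.62, 9.38 and 9.61 in hc1 arrays, against 6.07, 5.85, 5.28 and 5.96 in hc24 arrays, and wild type arrays read 10.24, 9.60, 9.80 and 9.86. The hc24 arrays stood alone, with all 8 others above 9. The gene was 13.7-fold higher in hc1 than in hc24 (adjusted p = 1.94e-08, limma), and 17-fold lower in hc24 than in wild type (7.25e-10). Between hc1 and wild type the log2 difference was -0.31 ± 0.17 (standard error) and did not pass (0.115), except after cyclic loess (0.0307) and without hc24 replicate 3 (0.0403).

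The reverse held for clec-61 on chromosome II. All hc1 arrays lay between 5.13 and 5.15, against 7.10, 7.30, 6.13 and 6.51 in hc24 arrays, and all wild type arrays lay between 5.12 and 5.13. The hc24 arrays stood alone above 8 nearly identical values, and whether 5.12 is this probe set's background was not tested. The measured difference was 3.12-fold, higher in hc24 than in wild type (adjusted p = 1.67e-05, limma), and 3.08-fold, lower in hc1 than in hc24 (5.65e-05), and both are lower bounds if 5.12 is background. Sperm markers were called between the same groups: of 25 tested, 24 were higher in hc24 than in wild type and 23 were lower in hc1 than in hc24. Array hc1 replicate 2 was an exception, with a summed log2 signal over 30 sperm genes of 220.5. The other hc1 arrays had 130.2 to 148.3 and the hc24 arrays 225.7 to 230.6. In that array clec-61 read 5.15 and clec-190 read 9.62, near the other hc1 arrays. Their part in these allele differences was not tested.

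In 3 members with smaller differences, hc1 alone was called against wild type. The gene clec-173 averaged 8.41 ± 0.18 in hc1 and 7.85 ± 0.16 in hc24, against 7.56 ± 0.28 in wild type, and was 1.8-fold higher in hc1 than in wild type (adjusted p = 0.000151, limma) and 1.47-fold higher than in hc24 (0.00891). The difference between hc24 and wild type did not pass (0.0832) except when arrays were centred (0.00148), with array weights (0.0277) and without wild type replicate 3 (0.0193). The gene clec-223 averaged 9.47 ± 0.07 in hc1 and 8.81 ± 0.32 in hc24, against 8.85 ± 0.36 in wild type, and was 1.54-fold higher in hc1 than in wild type (0.00751), which was lost with the replicate number as a block (0.0816). Lower in hc1 was clec-204, which averaged 4.94 ± 0.22 in hc1 and 5.65 ± 0.22 in hc24, against 5.88 ± 0.26 in wild type, a difference of 1.92-fold from wild type (0.00014) and 1.64-fold from hc24 (0.00341).

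The gene clec-10 on chromosome II was low in hc1. It read 5.59, 6.09, 4.67 and 5.49 in hc1 arrays and 8.04, 8.25, 7.89 and 7.06 in hc24 arrays, against 7.57, 7.13, 6.75 and 6.90 in wild type arrays. It was 3.09-fold lower in hc1 than in wild type (adjusted p = 0.00049, limma) and 5.09-fold lower in hc1 than in hc24 (0.000106). The higher values in hc24 than in wild type did not pass for this probe set (0.0602) but did in 10 of the 22 alternatives, among them without wild type replicate 3 (0.0379), hc1 replicate 2 (0.0438), hc1 replicate 5 (0.0312) or hc24 replicate 5 (0.0134). The gene's second, dimmer probe set, with a log2 difference of 0.64 beside 0.72 for the brighter one, was called higher in hc24 (0.000461), so the 2 sets gave a similar size and only the call differed.

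The gene clec-76 on chromosome IV was near background in hc1 and wild type. It read 4.10, 5.17, 3.98 and 3.86 in hc1 arrays and 5.64, 5.65, 5.23 and 5.04 in hc24 arrays, against 3.24, 3.57, 3.83 and 3.78 in wild type arrays. It reached log2 4 in all 4 hc24 arrays, 2 hc1 arrays and 0 wild type arrays, so it was tested only through the groups where it is high. It was at least 2.62-fold higher in hc24. In hc1 it was at least 1.21-fold higher, and no p-value is given for it. Its calls and those of clec-12 stay in the counts of higher members. The hc1 call of clec-76 was lost without hc1 replicate 2, wild type replicate 3 or wild type replicate 4, and in 4 other alternatives. The array hc1 replicate 2 lay at least 1 log2 unit above the mean of the other hc1 arrays in 3 of the 220 clec genes (clec-47, clec-76 and clec-258) and at least 1 below in 0, and 50 of the 53 tested members lay within 0.5.

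Among members with a known role, the results were mixed. The gene clec-49, which has been linked to resistance to Serratia marcescens, averaged 10.26 ± 0.05 in hc1 and 10.03 ± 0.11 in hc24, against 10.89 ± 0.08 in wild type, and was 1.55-fold lower in hc1 and 1.81-fold lower in hc24 (adjusted p = 6.27e-06 and 4.37e-07, limma). The gene clec-67, a target of the PMK-1 p38 kinase pathway, averaged 8.66 ± 0.10 in hc1 and 8.93 ± 0.21 in hc24, against 9.47 ± 0.56 in wild type. It was 1.76-fold lower in hc1 (0.00521) and 1.46-fold lower in hc24 (0.0468), where the call was lost in 13 of 22 alternatives, with the highest adjusted p of 0.186. The PMK-1 target clec-85 averaged 11.51 ± 0.12 in hc1 and 11.32 ± 0.06 in hc24, against 11.50 ± 0.31 in wild type, and did not pass (0.918 and 0.249).

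The genes clec-4, clec-41 and clec-42 have been linked to defence against Bacillus thuringiensis. The log2 signal of clec-4 averaged 5.69 ± 0.18 in hc1 and 5.75 ± 0.14 in hc24, against 5.66 ± 0.07 in wild type, and did not pass (adjusted p = 0.818 and 0.478, limma). The gene clec-41 averaged 10.29 ± 0.16 in hc1 and 10.46 ± 0.14 in hc24, against 10.16 ± 0.17 in wild type, and was 1.23-fold higher in hc24 (0.0265). That call was lost in 6 alternatives, among them leaving out wild type replicate 4 (0.0759), wild type replicate 6 (0.0657), hc24 replicate 1 (0.0779) or hc24 replicate 2 (0.0676). The gene clec-42 was at background in all arrays. So were clec-38, which takes part in axon outgrowth, clec-39, also linked to Serratia, and clec-60, clec-70 and clec-71, which are known from the response to Staphylococcus aureus. For clec-52, which that infection induces too, the log2 means were 9.50 ± 0.07 in hc1, 9.06 ± 0.06 in hc24 and 8.60 ± 0.48 in wild type. It was 1.86-fold higher in hc1 (0.000717), and its 1.37-fold difference in hc24 (0.0432) was lost in 14 of the 22 alternatives, with the highest adjusted p of 0.161.

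A few members rose above background in some arrays without meeting the filter, and they have values only. The Staphylococcus response gene clec-86 read 2.30, 2.31, 2.29 and 2.28 in hc1 arrays and 5.40, 5.39, 3.26 and 4.49 in hc24 arrays, against 2.26, 2.25, 2.25 and 2.25 in wild type arrays. Its signal above log2 4 thus lay in 3 hc24 arrays. The gene clec-230 lay between 2.14 and 2.16 in hc1 arrays and between 2.14 and 2.15 in hc24 arrays, against 3.38, 3.32, 3.78 and 4.17 in wild type arrays. The gene clec-47 read 4.83 in hc1 replicate 2 and between 2.90 and 2.91 in the other hc1 arrays, and between 3.03 and 4.06 in hc24 arrays, against 2.88 to 2.95 in wild type arrays. Above log2 4, clec-47 thus had 1 hc1 array and 1 hc24 array, and clec-230 had 1 wild type array.

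Neighbouring clec genes were followed as runs, each of 3 or more clec genes with no other protein-coding gene of the RefSeq table between them. There were 15 such runs, and they held 63 members, of which 11 were tested (17.5%), against 42 of 157 members outside them (26.8%). Only 4 runs held a tested member. In the run of clec-62, clec-63, clec-64, clec-65 and clec-66 on chromosome II, the 4 tested genes were lower in both mutants, with log2 changes of -0.80, -0.25, -0.47 and -0.53 in hc1 and -0.87, -0.32, -0.48 and -0.43 in hc24, in that order without clec-64. Of these, clec-63 in both mutants and clec-66 in hc24 did not pass when arrays were centred. The other gene of that run, clec-64, was at background. The probe sets of clec-62 and clec-65 are of the kind that can match other transcripts. Of all tested members 43.4% were lower in both mutants, and of all probe sets tested 18.3%.

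In the run of clec-57, clec-227, clec-56, clec-54 and clec-55 on chromosome V, the 4 genes tested were also lower in both mutants. Their log2 changes were -1.19, -0.79, -0.92 and -0.94 in hc1 and -1.79, -0.36, -0.32 and -0.75 in hc24, and clec-55 was not tested. The hc24 calls of clec-227 (adjusted p = 0.0409, limma) and clec-56 (0.0236) were lost in 13 and 6 of the 22 alternatives, up to 0.42 and 0.562. Neighbours did not always share a direction: in a run on chromosome IV, clec-67 was lower and clec-174 higher in both mutants. Lower in both mutants were 43.4% of all tested members and 18.3% of all probe sets tested. Whether neighbours share a direction more often than other members was not tested. On each chromosome but I and X, more members were called lower than higher in hc1, and on chromosome I the counts were 3 higher and 3 lower. These counts are small, with 3 members tested on chromosome III and 2 on X. The whole family had 12 higher and 28 lower in hc1, beside 43.3% and 25.9% of all probe sets tested. Shares of all probe sets by chromosome were not computed.

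**Figure D5:**
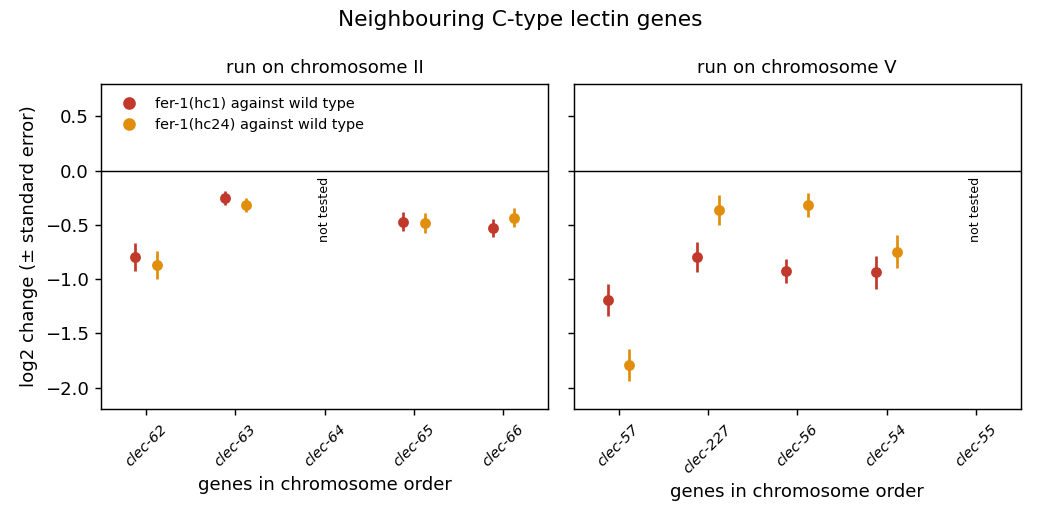
Log2 change against wild type (± standard error) of the clec genes in 2 runs of neighbours, in chromosome order, for fer-1(hc1) (red) and fer-1(hc24) (orange); clec-64 and clec-55 were not tested. All 16 points lie below 0.

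Another family of sugar-binding proteins, the galectins (lec genes), had 11 of 12 members tested. In hc1, 10 were lower and 0 higher (90.9% and 0%), with a median of -0.76. In hc24, 7 were lower and 0 higher (63.6% and 0%), with a median of -0.38. Of all probe sets tested, 25.9% were lower and 43.3% higher in hc1, and 21.7% and 37.7% in hc24, with medians of 0.14 and 0.12. The galectin lec-8, which binds glycolipids, was 1.82-fold lower in hc1 and 2.84-fold lower in hc24 (adjusted p = 3.88e-06 and 2.41e-08, limma), and lec-11 was 2.26-fold lower in hc1 and 2.02-fold lower in hc24 (8.6e-05 and 0.000382). Of 35 immune regulators, 28 were tested. In hc1, 8 were higher and 11 lower (28.6% and 39.3%, against 43.3% and 25.9% of all probe sets tested), with a median of -0.10. In hc24, 5 were higher and 12 lower (17.9% and 42.9%, against 37.7% and 21.7%), with a median of -0.21. The transcription factors pqm-1 and hlh-30 were lower in both mutants, by 2.03-fold and 1.44-fold in hc1 and by 2.14-fold and 1.64-fold in hc24. The kinase gene pmk-1 did not pass in either comparison with wild type (0.19 in hc1 and 0.152 in hc24). The type II TGF-beta receptor gene daf-4 was higher in both, by 1.89-fold in hc1 and 1.32-fold in hc24.

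Markers of other tissues and stages moved between the same groups. Of 10 epidermis and molting genes, 9 were tested, of which 9 were lower in hc1 and 8 lower and 1 higher in hc24. Their summed log2 signal ranged from 72.4 to 75.1 in hc1 and from 65.5 to 67.4 in hc24, against 95.9 to 102 in wild type. Of the 10, 1 lay under log2 4 in each hc1 array, 2 to 3 in hc24 arrays and 0 to 1 in wild type arrays. Arrays of all groups thus carried transcripts of these genes although the worms were labelled young adult, with the highest sums in wild type. The 4 yolk protein genes tested were at high signal in all groups. In hc1, 0 of them were called, and in hc24, 3 were lower and 0 higher (75% and 0%, against 21.7% and 37.7% of all probe sets tested). Of 31 sperm genes, 25 were tested, of which 1 was higher in hc1 and 24 were higher in hc24. Over 30 of them the summed signal ranged from 130.2 to 220.5 in hc1, with the highest value in replicate 2, and from 226 to 231 in hc24, against 137 to 162 in wild type, and 5 to 14 lay under log2 4 in hc1 arrays, 5 in hc24 arrays and 11 in wild type arrays. The sum over 10 intestine genes ranged from 106 to 109 in hc1 and from 106 to 107 in hc24, against 107 to 112 in wild type. Of these 10, 0 lay under log2 4 in any array. In hc1, 2 of them were called higher and 6 lower (20% and 60%, against 43.3% and 25.9% of all probe sets tested). In hc24, 0 were higher and 4 lower (0% and 40%, against 37.7% and 21.7%). Their median log2 changes were -0.45 in hc1 and -0.28 in hc24, beside 0.14 and 0.12 over all probe sets tested. Beside the same shares of all probe sets, 1 of 5 neuron genes tested was higher and 3 lower in hc1 (20% and 60%). In hc24, 0 were higher and 4 lower (0% and 80%). Of 4 pharynx genes tested, 0 were higher and 2 lower in hc1, and 1 was higher and 1 lower in hc24. Of 9 oocyte and eggshell genes, 7 were higher and 0 lower in hc1, and 4 were higher and 1 lower in hc24. The sums over 7 early embryo genes were 50.9 to 51.5 in hc1, 48.7 to 49.6 in hc24 and 36.9 to 37.4 in wild type. The part of these shifts in the clec results was not tested.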

How the data were processed

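One Affymetrix C. elegans array was hybridised per sample, and the authors deposited 1 log2 value per probe set and array, made with Affymetrix Expression Console and GCRMA per the submitters' processing notes (versions not given in the sources used here). GCRMA corrects background from probe sequence, which sets a floor for dim probe sets, and normalizes across arrays. Of 22548 probe sets other than 77 controls, 20766 had 1 gene symbol, 887 several and 895 none; 0 symbols changed through the RefSeq table, which matched 20701.

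Probe sets at log2 4 or more in at least 4 of 12 arrays (11833) entered a linear model of the 3 group means over all 12 arrays (R 4.3.3, limma 3.58.1, empirical Bayes moderation), and p-values were adjusted by Benjamini-Hochberg within each contrast. Adjusted p-values are two-sided and called under 0.05. Values are means ± SD over 4 arrays. A group mean under log2 4 was held at 4 and the fold given as "at least". The number of arrays limits the precision. The samples are called biological replicates in the titles; nothing says what the numbers pair, and arrays with the same number did not deviate together (correlations -0.07 to 0.08).

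The text names or counts, in each contrast, the 8 largest rises and 8 largest falls among called members whose arrays do not overlap, the 6 brightest, those with opposite calls in the mutants, those with a role in the literature, those in which hc1 replicate 2 stands above, and runs of neighbours. The genes clec-78, clec-230 and clec-265, which lie outside this rule, were chosen after their values were seen. Members, lists and rule were chosen with earlier results of these data known. The alternatives were 2 scalings, 3 treatments of low values, array weights, trended and robust moderation, fits of 2 groups only, the mean over a gene's probe sets, a replicate block and each array left out.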

Additional observations from a re-analysis of the deposited data

Results flagged for a closer look

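In 12 of the 117 groups of 4 arrays of the named members, 1 array stood apart from the other 3, by a gap larger than Dixon's limit for groups of 4; chance gives about 1 in 20 groups. In hc1 these were replicate 6 for clec-266 (13.57, high), replicate 5 for clec-190 (9.38, low) and replicate 1 for clec-227 (6.51, high). In hc24 they were replicate 3 for clec-174 (9.53, low), clec-88 (14.48, low) and clec-204 (5.98, high), replicate 5 for clec-266 (12.56, low) and clec-145 (6.00, high), and replicate 1 for clec-4 (5.96, high) and clec-66 (9.63, high). In wild type it was replicate 3 for clec-57 (9.35, high) and clec-66 (10.24, high).

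The change against wild type was called in opposite directions in the 2 mutants for 3 members. The tested log2 difference of hc1 minus hc24 was -1.87 for clec-53, -1.60 for clec-17 and -1.23 for clec-83. The hc24 call of clec-53 and the hc1 call of clec-17 were lost in some alternatives. Opposite signs without 2 calls also occurred, as in clec-10, at -1.63 in hc1 (called) and 0.72 in hc24 (adjusted p = 0.0602, limma).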

How the results depend on the processing

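The counts of called members and their median moved with the filter and the scaling. Without a filter on low values, 78 members were higher and 29 lower in hc1 (beside 40.2% and 15.3% of all probe sets) and 31 higher and 25 lower in hc24 (24.2% and 12.4%), and the median log2 difference became 0.0287 in hc1 and 0.0258 in hc24, since the 167 dim members, which differ from wild type by a median of 0.03 in each mutant, then enter. Centring each array on its median moved the median to -0.10 in hc1 and -0.00322 in hc24. It also turned the change of clec-63 in hc1 to 0.00101 (adjusted p = 0.99, limma), the cause of which was not tested beyond the shift in zero that centring makes.

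Leaving out 1 array at a time gave 11 to 13 higher and 28 to 30 lower members in hc1 (median -0.49 to -0.30; 40.0% to 43.8% and 22.9% to 26.0% of all probe sets), 12 to 18 higher and 22 to 26 lower in hc24 (-0.34 to -0.21; 34.5% to 38% and 18.7% to 21.7%), and 11 to 15 higher and 12 to 13 lower for hc1 against hc24 (-0.02 to 0.05; 13.8% to 19.9% and 10.5% to 12.8%). With the replicate number as a block the counts were 10 higher and 29 lower in hc1 (median -0.49; 37.3% and 24.8% of all), 14 and 24 in hc24 (-0.36; 33.7% and 21.3%), and 10 and 12 for hc1 against hc24 (0.05; 14.5% and 10.8%). Nothing in the labels says whether the replicate numbers pair the samples. Of 117 comparisons over the 39 tested named members, 90 were called. Of those, 69 stayed called with the same sign in all 22 alternatives, or in all 21 that tested clec-12. Many of these members were named because their differences were large and called, so these counts do not stand for the family. They include calls of clec-12 and clec-76, which were tested through the mutant arrays where they are high.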

Other observations

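Probe sets that pair a clec gene with another gene were not counted with the family. Of 15 shared by clec genes only, 4 passed the filter, and of 7 shared with a gene of another name, 1 did. Among them, the set shared by clec-13 and clec-15 averaged 8.15 in hc1 and 8.50 in hc24, against 6.12 in wild type. The set shared by clec-205 and clec-204 averaged 6.68 in hc1 and 6.89 in hc24, against 7.76 in wild type. The set shared by clec-69 and clec-67 averaged 8.84 in hc1 and 9.29 in hc24, against 9.62 in wild type. The shared sets alone do not tell which gene of a pair gives the signal. The set of clec-69 alone averaged 2.25 in hc1, 2.24 in hc24 and 2.21 in wild type, which is background. That of clec-67 alone averaged 8.66, 8.93 and 9.47, in the same order. In hc1 arrays the set of clec-205 alone read 6.76 to 7.17 and that of clec-204 alone 4.64 to 5.18. Neither clec-13 nor clec-15 is among the 220 members.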
